A study of Mus musculus with 10 samples.

Results

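Male germ cells that had entered meiotic prophase I fell into an earlier and a later leptotene-zygotene population, eL/L/Z, whose name stands for early leptotene to zygotene cells, and L/Z/eP, in which early pachytene cells are included. The 2 populations were compared gene by gene for RNA and for chromatin accessibility. They were taken as the authors named them from their single-cell RNA sequencing (scRNA-seq), and held 5705 (eL/L/Z) and 8107 (L/Z/eP) of 45250 scRNA-seq cells. RNA could be compared for 13761 of 28125 genes, those with a mean of at least 0.05 UMIs (unique molecular identifiers, 1 per captured RNA molecule) per 10000 over both populations. Accessibility was compared for all 30657 nuclear genes of the single-cell ATAC sequencing (scATAC-seq) matrix. Whole testes of C57BL/6J mice gave the nuclei: wild-type (WT) mice at 11, 17 and 25 days postpartum (dpp), and, at 8 weeks of age, Cre/+ controls and Nfya-CKO animals. RNA and accessible chromatin were read from one set of nuclei, and each condition had 1 library in each assay. In Nfya-CKO mice (Nfya fl/fl; Stra8-Cre), Cre made under the Stra8 promoter, which is active in spermatogonia and at meiotic entry, removes exons 5 to 6 of Nfya. Nfya encodes a subunit of the CCAAT-binding factor NF-Y. The deposited matrices hold 1 value per gene and population, pooled over all libraries. Every ratio below therefore has no replicate check and no p-value, and genes are called by size alone.

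In leptotene, chromosomes condense onto an axis and programmed double-strand breaks are made. In zygotene, homologous chromosomes pair and the synaptonemal complex assembles between them, and in pachytene, synapsis is complete and breaks are repaired as crossovers. The X and Y chromosomes, which lack a homolog over most of their length, are silenced in pachytene spermatocytes, while pachytene piRNA genes and many genes used later by spermatids are turned on, several of them by the transcription factors A-MYB (Mybl1) and RFX2.

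The populations drew their cells from different testes. The 25 dpp library held 2431 eL/L/Z cells, which are 42.6% of that population, and 7583 L/Z/eP cells, 93.5% (exact Clopper-Pearson 95% interval 92.98 to 94.1, counting error only). The libraries of 11 and 17 dpp held 1353 and 1839 eL/L/Z cells but only 29 and 266 L/Z/eP cells, and Cre/+ held 74 and 212. Nfya-CKO gave 4 eL/L/Z cells. No L/Z/eP cell carried the Nfya-CKO name, which allows a share of up to 0.0370% (3 of 8107 cells, counting error only). The remaining 4 and 17 cells carried no library name. Age, library and population therefore cannot be told apart in the pooled matrices. Nfya RNA was 1.11 per 10000 in the population named SpG Nfya-CKO and 0.456 in that named undiff. SpG (undifferentiated spermatogonia). These values count reads over the whole gene, not over the deleted exons, and so do not check the deletion.

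**Figure D1:**
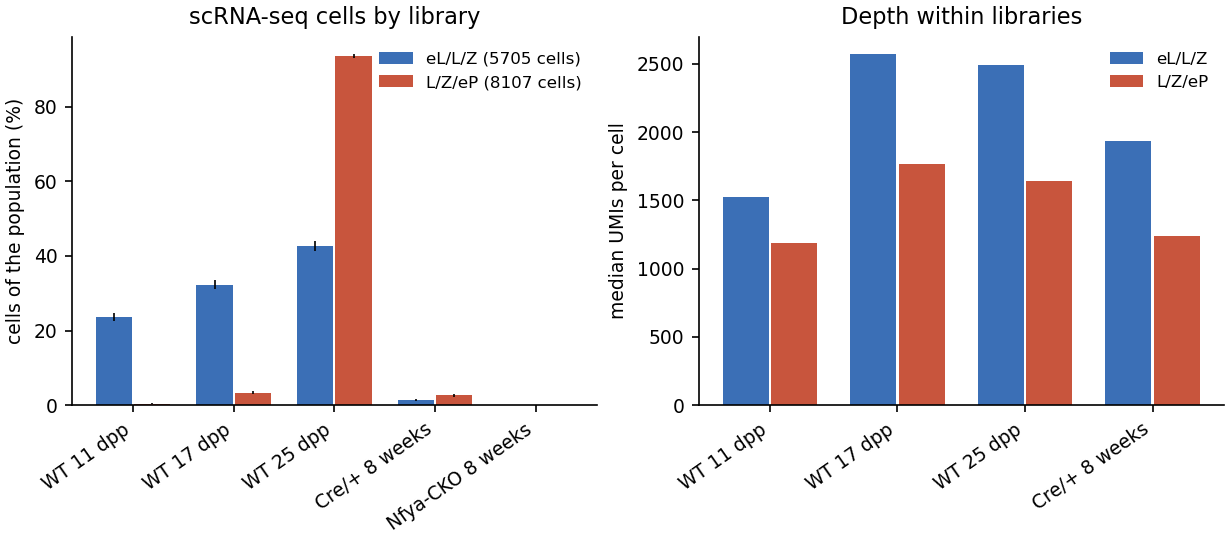
Left, percent of the eL/L/Z (blue) and L/Z/eP (red) scRNA-seq cells that came from each library, with exact 95% intervals. Right, median UMIs per cell in the libraries with at least 20 cells of both populations. L/Z/eP cells came mostly from 25 dpp (93.5%), and their median depth was below that of eL/L/Z cells in each of 4 libraries.

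Some cell barcodes occurred in more than 1 library. This held for 1415 of 5701 eL/L/Z cells with a library name (24.8%) and for 267 of 8090 L/Z/eP cells (3.30%), against 23.4% of all scRNA-seq cells and 0.588% of all scATAC-seq cells. At 25 dpp, eL/L/Z cells with a shared barcode had a median of 708 UMIs, and the others 3145. Leaving out all shared barcodes gave 25 dpp shares of 42.6% (eL/L/Z) and 94.2% (L/Z/eP). The pooled matrices could not be remade without these cells, and their part in the gene values was not tested.

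Depth differed within libraries too. The median eL/L/Z cell had 1522, 2570, 2493 and 1937.5 UMIs at 11, 17 and 25 dpp and in Cre/+, and the median L/Z/eP cell had 1186, 1765.5, 1644 and 1239. L/Z/eP cells were thus lower in 4 of 4 libraries, by a mean log2 difference of -0.54 ± 0.13 (SD, n = 4; exact sign-flip permutation test, two-sided, p = 0.125, the smallest that 4 libraries allow). Fragments per scATAC-seq cell were also lower, in 3 of 3 libraries, with a mean log2 difference of -0.81 ± 0.43 (SD, n = 3; same exact permutation test, p = 0.25, again the smallest possible). Without shared barcodes the differences were -0.76 (3 libraries with enough cells) and -0.81. Summed over cells, the minimum mean of 0.05 per 10000 corresponds to about 97.6 (eL/L/Z) and 82.6 (L/Z/eP) UMIs.

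RNA of marker genes was compared between the populations. The authors named their scRNA-seq clusters by marker expression, so these values are not an independent check of the names. Over the populations, summed RNA of the 11 leptotene and zygotene markers was 27.1 per 10000 in eL/L/Z and 39.9 in L/Z/eP; it was 16.2 in preleptotene cells (pL), and L/Z/eP was the highest of the 9 germ cell populations. Sycp1, the transverse filament protein of the synaptonemal complex, was at 15.3 in the earlier population, 25.3 in the later and 16.6 in mid to late pachytene (mP/lP). Dmc1, the meiotic strand-exchange recombinase, was highest in eL/L/Z, at 2.22, followed by 1.88 in L/Z/eP, against 0.508 for mP/lP. Prdm9, which marks the sites of breaks, was at 1.16 and 1.22. Other markers of the list had their highest level elsewhere. Sycp3, a protein of the chromosome axis, was at 3.82 in mP/lP, against 2.42 and 2.81 in the earlier and later population, and Spo11, which makes the breaks, was at 0.999, against 0.363 and 0.715. Mei4, needed for break formation, was highest in pL, at 0.917, against 0.726 in eL/L/Z and 0.367 in L/Z/eP. Summed over the list, mP/lP (28.0) lay just above eL/L/Z, and Sycp1 made up most of each sum. The 12 pachytene and diplotene markers summed to 9.43 in eL/L/Z and 21.9 in L/Z/eP. Markers of other cells were unequal: the 13 Sertoli markers summed to 25.9 and 11.6 per 10000, which is 19.4% and 8.70% of their level in Sertoli cells. Leydig, peritubular and macrophage markers stayed between 0.166 and 0.633 in sum. The 14 spermatid markers summed to 1.09 and 2.9996, against 57.0 in round spermatids (RS), and all 12 that could be tested were above 0 (median log2 ratio 0.81), 2 of them at least 2-fold higher. In the list, the protamine gene Prm1 was at 0.0489 and 0.135 and the acrosomal gene Acrv1 at 0.137 and 0.385. In the scATAC-seq data the authors clustered cells by accessibility and named the clusters through the scRNA-seq names of their cells, so that the names are not independent of those compared here. This naming gave the name eL/L/Z to 39.6% and L/Z/eP to 38.1% of the 3886 eL/L/Z cells that it held. Of the 5805 L/Z/eP cells, it named 57.6% L/Z/eP and 15.5% eL/L/Z. It named 4.79% of eL/L/Z and 22.4% of L/Z/eP cells mP/lP, the population in which many of the genes described below as higher had their highest value. RS names went to 0.0257% and 1.86%, Sertoli names to 7.85% and 2.34%, and spermatogonial names to 9.26% and 0.172%. The part of such cells in the differences below was not tested.

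In RNA, 831 of 13761 genes (6.04%) were at least 2-fold higher in L/Z/eP and 606 (4.4%) were at least 2-fold lower, on the log2 scale of UMIs per 10000 + 0.1, which understates the change of weakly expressed genes. The count of each list below stands against these shares. The median log2 ratio was -0.12. Centred on that median, 1028 genes were at least 2-fold higher and 413 lower. Among the highest lists were the piRNA loci named by chromosome band, sperm tail genes and germ cell isozymes, and among the lowest were spermatogonial markers, Sertoli markers and the replication and cell cycle lists. Lists of the recombination machinery lay near the median of all genes.

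**Figure D2:**
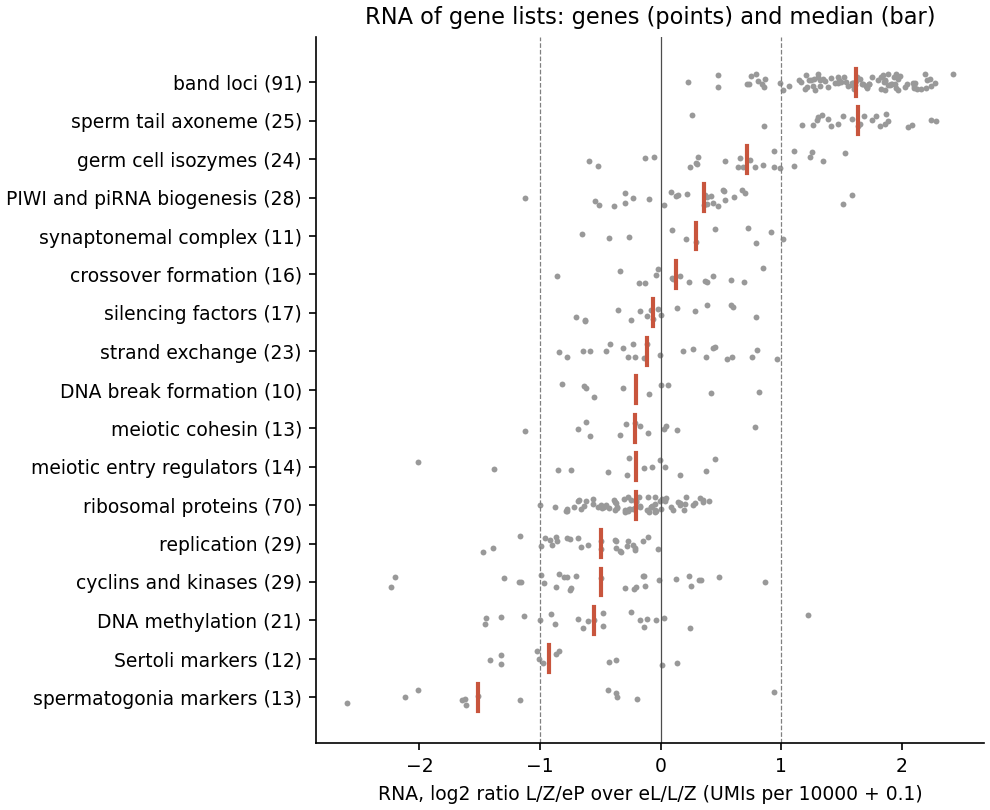
RNA log2 ratio, L/Z/eP over eL/L/Z, of each gene (points) and its median (red bar) in 17 gene lists, with the number of genes tested in brackets; dashed lines mark 2-fold. Band loci (median 1.62) and sperm tail genes (1.63) lie to the right, spermatogonial markers (-1.51) to the left, and the recombination lists around 0.

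piRNA precursor loci named by chromosome band were higher in L/Z/eP, and those named after a gene were mostly lower. Pachytene piRNAs are small RNAs that are cut from long single-stranded transcripts and bound by PIWI proteins. The matrices held 93 loci whose names give a chromosome band and a whole number, the form used for mouse pachytene piRNA loci, and this grouping by name was made after their values had been seen. All 91 that could be tested were higher in L/Z/eP in RNA (log2 ratio from 0.23 to 2.43, median 1.62), and 79 of them at least 2-fold, against 6.04% of all genes. With a pseudocount of 1 in place of 0.1, 33 reached 2-fold. The share of UMIs of all 93 was 0.528% in eL/L/Z and 2.07% in L/Z/eP. The share was 0.0724% in pL, 4.26% in mP/lP, 2.53% in diplotene cells (D) and 0.0202% in Sertoli cells, while undiff. SpG had 0.158% and differentiating spermatogonia (diff. SpG) 0.555%, slightly above eL/L/Z. The column of diff. SpG also held RNA of later cells, with spermatid markers at 17.1 per 10000 (1.09 in eL/L/Z) and pachytene and diplotene markers at 12.4 (9.43), so its values cannot be read as those of spermatogonia alone. RNA peaked in mP/lP for 92 of 93. Of the 7 further loci whose names end in a decimal, 6-qF3-1063.1 was at least 2-fold higher (1.11 and 2.99 per 10000), and 7-qD2-40.1 was lower (0.917 and 0.465; log2 ratio -0.85). The 115 loci named pi- after a gene went the other way at the median: 114 were tested, 82 were below 0, 6 were at least 2-fold higher and 16 at least 2-fold lower, with a median of -0.34. Of the 100 of these with their gene in the matrix, 74 had its RNA value within 5% in both populations, so they are largely the same measurement as the gene.

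The band loci were also more accessible. Accessibility, in units scaled so that all nuclear genes sum to 1e+06, was at least 2-fold higher in L/Z/eP for 59 of 93 (931 of 30657 genes in all, 3.04%), and 92 of 93 were above 0 (median log2 ratio 1.26, range -0.07 to 2.02). With mitochondrial genes kept in the scaling, 27 of the loci reached 2-fold, beside 54 of all genes. The median locus was at 11.9 units in undiff. SpG, 16.8 in diff. SpG, 5.39 in pL, 11.1 and 31.6 in the 2 populations and 63.6 in mP/lP. Of the 8 loci that already stood at 50 units or more in eL/L/Z, 0 reached 2-fold in accessibility, with a median of 0.07, although 6 did in RNA. The eL/L/Z value is also the denominator of the accessibility ratio, so this split itself favours low ratios, and no difference is read from it. Many loci were not independent of each other: 16 pairs of the same band had accessibility within 10% of each other in both populations, among them 6-qF3-8009 (8.47 and 37.5 units) and 6-qF3-28913 (8.49 and 37.6). Their RNA was 0.763 and 3.63 per 10000 for the former and 0.306 and 1.37 for the latter. The loci are thus fewer independent measurements than their number. Over 91 loci, Pearson's r of the RNA and accessibility log2 ratios was 0.42, as a description across loci from the same libraries, some nearly identical in accessibility.

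**Figure D3:**
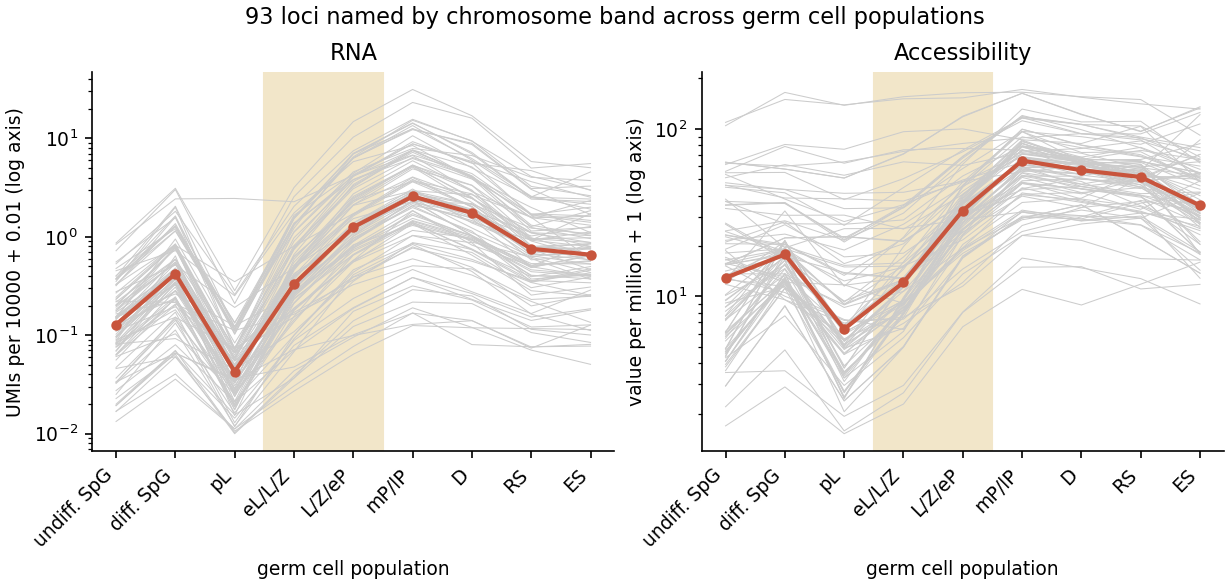
RNA (left) and accessibility (right) of the 93 loci named by chromosome band (grey lines) and their median (red) in 9 germ cell populations, on log axes; the shaded area holds eL/L/Z and L/Z/eP. Both medians are lowest in pL and highest in mP/lP, and over the shaded area they are 0.321 and 1.24 UMIs per 10000 and 11.1 and 31.6 units.

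A pair of long noncoding RNA genes stood among the genes with the highest joint change. Their RefSeq promoter windows are shown, in which no motif searched here was found. Gm10619 had 0.467 and 2.14 UMIs per 10000 in eL/L/Z and L/Z/eP, and accessibility of 10.5 and 44.8 units. Gm21269 had 0.468 and 2.096, and 10.6 and 45.03 units. The values of 7-qD2-11976 were almost the same (0.466 and 2.09; 10.4 and 45.1), and how reads were divided between overlapping loci and genes is not given in the sources used here. Accessibility of the 2 genes was nearly equal although their RefSeq windows do not overlap. The start behind these values is therefore not known, and the windows may not be the promoter measured. Nothing about motifs at the locus is read from them. The windows run from 250 bases before to 50 bases after the RefSeq start (GRCm38.p6), at chr7:73816454-73816753 on the minus strand and chr7:73825674-73825973 on the plus strand, 5′ to 3′.
Gm10619: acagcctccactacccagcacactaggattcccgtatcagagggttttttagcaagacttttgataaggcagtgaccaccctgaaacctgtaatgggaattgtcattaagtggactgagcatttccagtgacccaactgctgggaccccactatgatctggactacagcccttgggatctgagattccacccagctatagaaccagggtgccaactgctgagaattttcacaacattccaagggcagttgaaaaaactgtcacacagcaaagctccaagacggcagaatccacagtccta
Gm21269: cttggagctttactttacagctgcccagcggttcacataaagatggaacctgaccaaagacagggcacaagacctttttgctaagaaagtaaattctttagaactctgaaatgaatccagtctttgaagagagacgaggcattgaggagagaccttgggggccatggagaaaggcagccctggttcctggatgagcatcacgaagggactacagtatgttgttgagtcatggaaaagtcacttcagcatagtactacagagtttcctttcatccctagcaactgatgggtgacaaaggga

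Genes of the sperm tail axoneme, the microtubule and dynein core of the flagellum, were the most uniformly higher protein-coding list. Of 25 tested, 23 were at least 2-fold higher in L/Z/eP and 0 were lower (median log2 ratio 1.63), and the summed RNA of all 28 in the matrix was 15.3 per 10000 in eL/L/Z, 57.9 in L/Z/eP, 87.2 in mP/lP, 88.4 in D and 75.8 in RS. It was 23.4 in diff. SpG. Spermatid markers were higher in L/Z/eP as well (1.09 and 2.9996 in sum), as was the share of cells with an RS name in scATAC-seq (0.0257% and 1.86%), and their part in this difference was not tested. Spag16, a central-pair protein, had 1.66 and 8.46 per 10000 (log2 ratio 2.28). Dnah8, an outer dynein arm heavy chain of the sperm tail, had 1.54 and 5.83 (1.86). Both were low in pL, at 0.160 and 0.260, and at 10.8 and 9.72 in mP/lP. Spag17 (1.14 and 5.77), Cfap43 (0.935 and 3.39), Hydin (0.419 and 1.82), Cfap44 (0.166 and 0.838) and Rsph1 (1.36 and 3.79) also differed at least 2-fold. Accessibility of these genes differed far less, with a median log2 ratio of 0.33. At least 2-fold higher were 3 of 28, against 3.04% of all genes. The 3 were Dnah17 (7.26 and 28.4 units), Dnah8 (2.34 and 6.12) and Spag17 (8.64 and 19.9). For Cfap43 accessibility was lower, 29.4 and 22.6.

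By symbol, a grouping made after the values were seen, the dynein heavy chains (Dnah) had 12 of 13 tested genes at least 2-fold higher, the cilia and flagella associated proteins (Cfap) 17 of 25, and the subunits of the sperm calcium channel CatSper 7 of 10. The Mroh genes had 5 of 8 and the Adam genes 5 of 16. In accessibility, 4 Mroh, 4 Adam, 2 Dnah, 1 CatSper and 0 Cfap genes of those tested in RNA were at least 2-fold higher, against 3.04% of all genes. Mroh2b, for example, was at 0.381 and 1.67 UMIs per 10000 and at 7.03 and 24.9 units. Spata genes had 6 of 20 and Ccdc genes 22 of 108. At least 2-fold lower were 2 Ccdc genes and 1 Adam gene.

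The promoters of Spag16 and Cfap44 are shown for the short RFX half-site GTTGCC (capitals, either strand), which each holds in 2 places. RFX factors are known regulators of ciliary genes. The windows lie at chr1:69826720-69827019 and chr16:44394549-44394848, both on the plus strand (RefSeq, GRCm38.p6).
Spag16: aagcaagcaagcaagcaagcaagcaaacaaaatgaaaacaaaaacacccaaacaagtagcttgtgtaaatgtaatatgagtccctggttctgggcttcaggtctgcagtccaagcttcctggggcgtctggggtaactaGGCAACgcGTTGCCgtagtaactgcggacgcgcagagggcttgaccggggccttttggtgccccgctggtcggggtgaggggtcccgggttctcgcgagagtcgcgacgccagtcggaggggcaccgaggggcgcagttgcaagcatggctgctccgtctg
Cfap44: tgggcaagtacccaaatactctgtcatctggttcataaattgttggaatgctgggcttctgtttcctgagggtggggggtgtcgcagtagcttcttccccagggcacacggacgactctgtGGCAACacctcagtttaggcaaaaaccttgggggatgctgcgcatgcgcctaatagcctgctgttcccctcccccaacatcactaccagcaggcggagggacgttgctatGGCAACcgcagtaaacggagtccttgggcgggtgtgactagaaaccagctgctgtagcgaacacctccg

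Germ cell isozymes and retrogenes, which stand in for somatic or X-linked enzymes in meiotic and haploid cells, had 6 of 24 tested genes at least 2-fold higher and 0 lower (median 0.71). Ldhc, the germ cell lactate dehydrogenase, had 1.803 and 5.397 UMIs per 10000 (log2 ratio 1.53) and an accessibility of 16.002 and 34.1 units. It was at 0.113 in pL and 11.7 in mP/lP. Pgk2, the germ cell phosphoglycerate kinase, was at 0.03595 and 0.161 in RNA but at 4.81 and 16.98 in accessibility (log2 ratio 1.63), and its RNA was highest, at 5.51, in elongating spermatids (ES). Phf7 (0.782 and 2.003) and Cox6b2 (0.748 and 1.72) were also at least 2-fold higher in RNA. The list of their somatic counterparts, most of them X-linked, had a median of -0.56, with 10 of 12 below 0 and 1 at least 2-fold higher, Ldha (0.278 and 0.675), which is autosomal.

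Among the PIWI proteins and piRNA factors, 2 of 28 were at least 2-fold higher (7.14%, near the 6.04% of all genes) and 1 lower (3.57%, against 4.4%), with a median of 0.36. Piwil1 (MIWI), the PIWI protein that binds pachytene piRNAs, had 1.64 and 4.85 UMIs per 10000 (log2 ratio 1.51), against 0.282 in pL and 11.4 in mP/lP, while its accessibility was 6.74 and 6.09 units. Tdrd6, a chromatoid body protein, had 0.2995 and 1.103 (1.59). Piwil4 (MIWI2), which acts in fetal germ cells, had 0.158 and 0.0186 (-1.12). Of the germline RNA-binding proteins, 2 of 23 were at least 2-fold higher, the Y-box proteins Ybx2 (9.75 and 21.6) and Ybx3 (2.62 and 7.42). Another 3 were at least 2-fold lower, Lin28a (0.812 and 0.2199), Mex3a (1.15 and 0.276) and Elavl2 (1.73 and 0.615), and the median of the list was -0.36.

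Of 23 pachytene transcription factors and cofactors tested, Rfx2, Rfx4 and Brdt were at least 2-fold higher and Taf9b lower. Rfx2 had 0.774 and 1.79 UMIs per 10000 (log2 ratio 1.12), and 141 and 159 units in accessibility. Brdt, the testis bromodomain protein, had 1.90 and 4.26. Mybl1 did not reach 2-fold, at 0.811 and 1.42, against 0.287 in pL. Rfx4 led the genes with higher RNA and lower accessibility: its RNA was 0.339 and 1.297 per 10000 while its accessibility was 27.9 and 14.3 units. Nfya itself was at 0.375 and 0.392, Nfyb at 0.442 and 0.281 and Nfyc at 1.40 and 1.14, none of them 2-fold apart. The promoters of Ldhc and Rfx2 are shown for the MYB motif AACNGTT, which Ldhc holds in 2 places, and which in Rfx2 shares bases with a GTTGCC; capitals also mark CACCTG in Ldhc and CCAAT in Rfx2, on either strand. They lie at chr7:46861013-46861312 on the plus strand and chr17:56830959-56831258 on the minus strand (RefSeq, GRCm38.p6).
Ldhc: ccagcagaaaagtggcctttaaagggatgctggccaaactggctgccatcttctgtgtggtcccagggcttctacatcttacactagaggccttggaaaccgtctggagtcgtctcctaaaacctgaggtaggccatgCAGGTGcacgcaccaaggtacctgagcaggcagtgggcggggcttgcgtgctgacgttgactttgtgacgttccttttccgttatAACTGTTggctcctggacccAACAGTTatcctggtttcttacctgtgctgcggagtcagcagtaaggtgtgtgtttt
Rfx2: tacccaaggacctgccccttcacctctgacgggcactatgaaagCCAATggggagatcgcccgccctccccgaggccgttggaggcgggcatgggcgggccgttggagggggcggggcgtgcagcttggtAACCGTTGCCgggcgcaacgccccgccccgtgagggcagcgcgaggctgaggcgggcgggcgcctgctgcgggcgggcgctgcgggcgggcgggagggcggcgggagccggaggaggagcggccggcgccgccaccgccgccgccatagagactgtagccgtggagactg

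By size alone, the 10 genes with the largest RNA increase among those with a mean of at least 0.2 per 10000 were 3-qA2-617, 4932414N04Rik, Gm41335, Cyp19a1, Spag16, 4930430A15Rik, 4933409G03Rik, 9-qA5.3-24188, Ccdc7a and Magi2. The locus 3-qA2-617 had 1.21 and 6.96 UMIs per 10000 (log2 ratio 2.43). Cyp19a1, the aromatase that makes estrogen from androgen, had 0.802 and 4.32 (2.29), with 0.0596 in pL and 9.19 in mP/lP, and its accessibility was 2.82 and 9.98 units. Magi2, a scaffold protein, had 1.44 and 7.24 (2.26). The group thus mixed 2 piRNA loci, a long noncoding RNA and 7 protein-coding genes, 3 of them known only by clone names.

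The genes that were lower in L/Z/eP included markers of spermatogonia and of Sertoli cells. Of 13 spermatogonial markers, 8 were at least 2-fold lower and 0 higher (median -1.51), and the sum of all 14 in the list was 34.2 per 10000 in undiff. SpG, 10.6 in eL/L/Z and 3.48 in L/Z/eP. Sall4, a pluripotency-linked zinc finger factor, showed the largest decrease of all named genes: 4.88 in undiff. SpG, 0.925 in eL/L/Z and 0.0689 in L/Z/eP (log2 ratio -2.60). Zbtb16 (PLZF), a stem cell factor, had 1.32 and 0.226 (-2.12), and Dmrt1, which holds germ cells in the spermatogonial program, 2.27 and 0.488 (-2.01). Uchl1 (2.46 and 0.717) and Kit (0.756 and 0.178) followed. Because eL/L/Z also had more cells that scATAC-seq named spermatogonial (9.26%, against 0.172%), RNA from such cells and expression within spermatocytes cannot be told apart. The accessibility of these 14 markers had a median log2 ratio of -0.30, and 0 of 14 were 2-fold lower. Of the 12 Sertoli markers tested, 5 were at least 2-fold lower (41.7%, against 4.4% of all genes) and 0 higher, with a median of -0.92, and their summed level was 19.4% (eL/L/Z) and 8.70% (L/Z/eP) of that in Sertoli cells. The part of Sertoli RNA in the other genes that were lower was not tested.

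The other genes with the largest RNA decrease were Bahcc1 (1.67 and 0.198), a chromatin reader, Fkbp9, Trim71 and the locus pi-Trim71.1, whose values were nearly those of Trim71, Ccnd2 (1.82 and 0.309), Ccnd1 (1.27 and 0.198), Sox3 (1.51 and 0.253) and Mpped2. Ccnd1 and Ccnd2 encode D-type cyclins that drive entry into S phase, and Ccnd2 was at 10.8 in undiff. SpG and at 5.24 in Sertoli cells. Of 10 Sox genes tested, a grouping made after the values were seen, 5 were at least 2-fold lower and 1, Sox6 (1.002 and 2.39), higher.

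All 29 replication licensing and fork genes tested were below 0 in RNA (median -0.49), and 3 were at least 2-fold lower: Mcm2 (0.461 and 0.101), Cdt1 (0.314 and 0.0583) and Mcm4 (0.588 and 0.206). Of 29 cyclins and cell cycle kinases, 22 were below 0 and 5 at least 2-fold lower, among them Ccna2 (0.904 and 0.309) and E2f1 (0.8897 and 0.3398). The accessibility of both lists was near 0, with medians of -0.08 and 0.02. Of 21 DNA methylation and heterochromatin genes, 4 were at least 2-fold lower: the maintenance methyltransferase Dnmt1 (2.46 and 0.923), Dnmt3b (0.687 and 0.187), the oxidase Tet3 (2.42 and 0.822) and the H3K9 methyltransferase Ehmt1 (3.901 and 1.72). Morc2b was at least 2-fold higher (0.318 and 0.876).

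Of the regulators of meiotic entry, 10 of 14 were below 0 in RNA, against 8100 of all 13761 genes. Stra8, the retinoic acid induced factor needed for entry into meiosis, had 4.86 UMIs per 10000 in pL, 2.67 and 0.964 in the 2 populations (log2 ratio -1.38) and 0.272 in mP/lP. Its accessibility in the same order was 99.9, 79.4, 62.4 and 34.7 units. Of the list, Stra8 and Dmrt1 were at least 2-fold lower and none higher, with a median of -0.20. The Stra8 promoter is shown for its 4 CCAAT boxes (capitals, either strand), at chr6:34920698-34920997 on the plus strand (RefSeq, GRCm38.p6).
Stra8: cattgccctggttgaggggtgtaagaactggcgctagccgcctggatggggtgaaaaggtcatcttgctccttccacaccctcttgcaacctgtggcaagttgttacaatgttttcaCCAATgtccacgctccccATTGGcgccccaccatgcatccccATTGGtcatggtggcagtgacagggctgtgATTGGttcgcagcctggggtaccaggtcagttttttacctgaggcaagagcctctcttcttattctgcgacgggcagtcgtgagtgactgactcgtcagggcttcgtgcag

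The machinery of recombination and pairing did not reach 2-fold for most genes. At 2-fold, 0 of 10 genes for break formation, 0 of 23 for strand exchange and resection, 0 of 16 for crossover formation, 0 of 12 for telomere attachment and 0 of 17 sex chromosome silencing factors were called in either direction, with medians of -0.20, -0.11, 0.13, -0.14 and -0.06. Of 11 synaptonemal complex and axis genes, 8 were above 0 and 1, the central element gene Syce3 (0.505 and 1.13), was at least 2-fold higher, with a median of 0.29 and a sum of 46.0 and 67.1 per 10000. Of 13 cohesin genes, Rad21, the kleisin subunit of mitotic cohesin, was at least 2-fold lower (1.66 and 0.707). All 70 ribosomal protein genes tested stayed within 2-fold (median -0.21), and 1 of 38 oxidative phosphorylation genes was called in each direction, Cox6b2 higher and its somatic counterpart Cox6b1 lower (1.002 and 0.4496).

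The study's own classes of genes, made from separately published bulk data, were also compared. Of its mitosis genes, 978 could be tested, 328 were at least 2-fold lower and 0 higher (median -0.84), and 971 were below 0. The 79 whose start had NFYA binding at most 2 kb away in 2 or more of the 3 L/Z replicates had a median of -0.82 with 23 at least 2-fold lower, and the 899 without had -0.84 with 305 lower. The lists of poised genes were held in shortened form, 1475 entries of each, and the rest of each list was not analysed here. Of the poised meiosis-I genes held, 93 of 1360 were at least 2-fold higher (6.84%, near the 6.04% of all genes) and 3 lower (0.221%, against 4.4%), with a median of 0.23. Of the poised spermiogenesis genes held, 134 of 1264 (10.6%) were at least 2-fold higher and 1 lower (median 0.27). RNA medians of the NFYA-bound members and of the others were 0.25 and 0.22 for meiosis-I and 0.20 and 0.28 for spermiogenesis. In accessibility the bound members had the higher medians, 0.12 against 0.03 for meiosis-I, 0.11 against 0.03 for spermiogenesis and -0.03 against -0.23 for mitosis. Above 0 were 186 of 244 bound and 681 of 1224 other meiosis-I genes. The bound genes also had the higher accessibility, with a median of 111.6 units in eL/L/Z against 55.1 for the other meiosis-I genes. None of these differences was tested.

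In accessibility, nearly all 2-fold differences were increases. In L/Z/eP, 931 of 30657 genes (3.04%) were at least 2-fold higher and 23 (0.075%) at least 2-fold lower, with a median of 0.06. Most of these genes were weakly accessible: with a mean of at least 10 units, 182 of 16458 genes (1.11%) were at least 2-fold higher, and the median was -0.04. By decile of mean accessibility, the median log2 ratio was 0.27, 0.45 and 0.33 in the lowest 3, -0.17 in decile 6 and 0.04 in the highest. Mitochondrial genes, left out before scaling, took 45.4% of the scATAC-seq values of eL/L/Z and 63.8% of L/Z/eP, and with them kept the counts were 54 higher and 1484 lower. The largest gains above 10 units were those of 6-qF3-8009, 6-qF3-28913, 7-qD2-11976, 7-qD2-24830 and Gm21269. The largest losses included A230050P20Rik (26.2 and 11.2), the antisense gene Gm37035 (25.5 and 10.9), Vsnl1 (19.2 and 8.17) and Neurog1 (16.8 and 7.22), all under 0.05 UMIs per 10000 in RNA.

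Values of the accessibility matrix followed gene starts. The study's methods describe promoter accessibility as the mean coverage of a short window on either side of the start, in pooled tracks scaled to mapped fragments. The deposited matrix is scaled otherwise, and that it used this window is not stated. Pairs were formed from genes whose mean reached 10 units. Of 729 divergent pairs with starts under 200 bases apart, 723 (99.2%) had accessibility within 10% of each other in both populations, against 34 of 809 pairs (4.20%) with starts 5000 to 20000 bases apart. Genes with a shared promoter are therefore 1 measurement of accessibility, not 2.

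RNA and accessibility were then compared for the 13750 genes in both assays. At 2-fold in both, 182 genes (1.32%) were higher in L/Z/eP, 1 was lower and 0 differed in opposite directions. Of the 182, 55 were band piRNA loci. Most genes with higher RNA differed less in accessibility: of 831, 715 (86.0%) had a higher accessibility, against 6911 of all 13750 genes (50.3%). The 831 had a median of 15.9 units in eL/L/Z and 25.9 in L/Z/eP. Of the 605 genes with lower RNA and a value in both, 491 had a lower accessibility, against 6837 of all 13750. The 605 had medians of 47.5 and 38.8. At 1.5-fold in both, the counts were 607 higher in both, 139 lower in both and 22 in each mixed class. Across genes, which are not independent replicates, Pearson's r of the log2 ratios was 0.49 and Spearman's rho 0.40 (0.46 and 0.39 without piRNA loci).

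**Figure D4:**
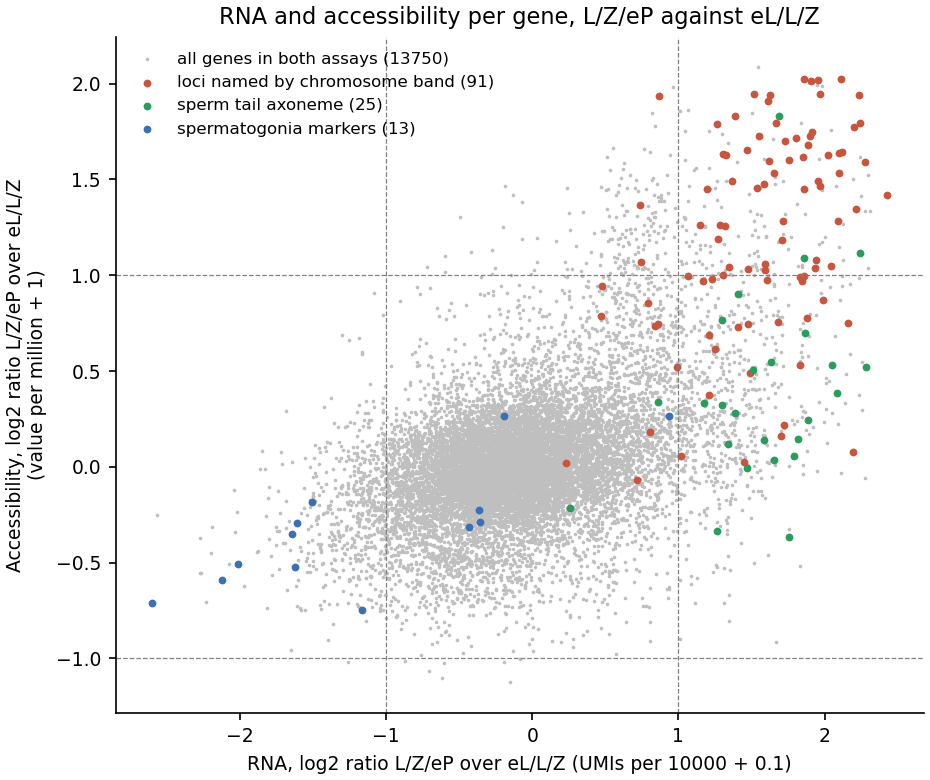
RNA log2 ratio (horizontal) against accessibility log2 ratio (vertical), L/Z/eP over eL/L/Z, for 13750 genes (grey), with band loci in red, sperm tail genes in green and spermatogonial markers in blue; dashed lines mark 2-fold. The upper right corner holds the 182 genes at least 2-fold higher in both, of which 55 are band loci. Sperm tail genes lie to the right with smaller accessibility ratios.

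The gene that was lower in both was Ephb4, an ephrin receptor, at 0.332 and 0.0797 UMIs per 10000 and 37.2 and 17.8 units. It was at 0.768 and 69.5 in Sertoli cells. The next largest joint decreases were those of Grik3, Sox9, Tenm3 and Gas7. Sox9, which defines Sertoli cells, had 1.59 and 0.824 UMIs per 10000 (10.7 in Sertoli cells) and 48.0 and 23.3 units, so this group held a gene of the Sertoli list. Genes with higher RNA and lower accessibility were, after Rfx4, Limch1, Nebl and the POU factor Pou2f2 (1.05 and 2.08 UMIs per 10000; 35.96 and 22.02 units). Those with lower RNA and higher accessibility were Prdx4, Tmsb4x, Pld3, Prdm15 and Hmgcs1, of which Prdx4 (0.938 and 0.538; 7.48 and 15.2) and Tmsb4x (1.84 and 0.999; 9.85 and 15.3) are X-linked.

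X-linked genes were lower in RNA more often than autosomal genes. Of 462 X-linked genes tested, 380 (82.3%) were lower in L/Z/eP. At least 2-fold lower were 28 (6.06%, against 4.30% of autosomal genes), and 1, Gm595 (0.242 and 0.593), was at least 2-fold higher. The median log2 ratio was -0.44. Autosomal genes had a median of -0.11, with 58.4% lower, or 49.4% after centring on the median of all genes, against 76.2% of X-linked genes on that scale. Among the X-linked genes at least 2-fold lower were Sox3, Esx1 (1.605 and 0.4297), a spermatogenic homeobox gene, Hmgb3 (0.965 and 0.277) and the ubiquitin-activating enzyme Uba1 (1.26 and 0.392). Summed RNA of the 462 genes was 244 per 10000 in pL, 222 and 149 in the 2 populations, and 52.2 in mP/lP.

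X-linked accessibility was higher in L/Z/eP for 77.1% of 1056 genes (median 0.22; autosomes 0.05), and 99 genes (9.38%) were at least 2-fold higher, against 2.53% of autosomal genes. With mitochondrial genes kept in the scaling, both medians were below 0, at -0.19 for X-linked and -0.44 for autosomal genes. Most of this lay in weakly accessible genes: at a mean of at least 10 units, 0 of 473 X-linked genes reached 2-fold, and medians were 0.05 and -0.05. By decile of mean accessibility, X-linked genes had the higher median in each but the lowest, for example 0.81 against 0.30 in decile 3 and 0.12 against -0.02 in decile 9. The highest decile holds 1 X-linked gene. Summed accessibility of the X-linked genes was 14947 units in eL/L/Z and 16256 in L/Z/eP. Sertoli markers were lower in L/Z/eP as well (25.9 and 11.6 per 10000), and their part in either measure was not tested.

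**Figure D5:**
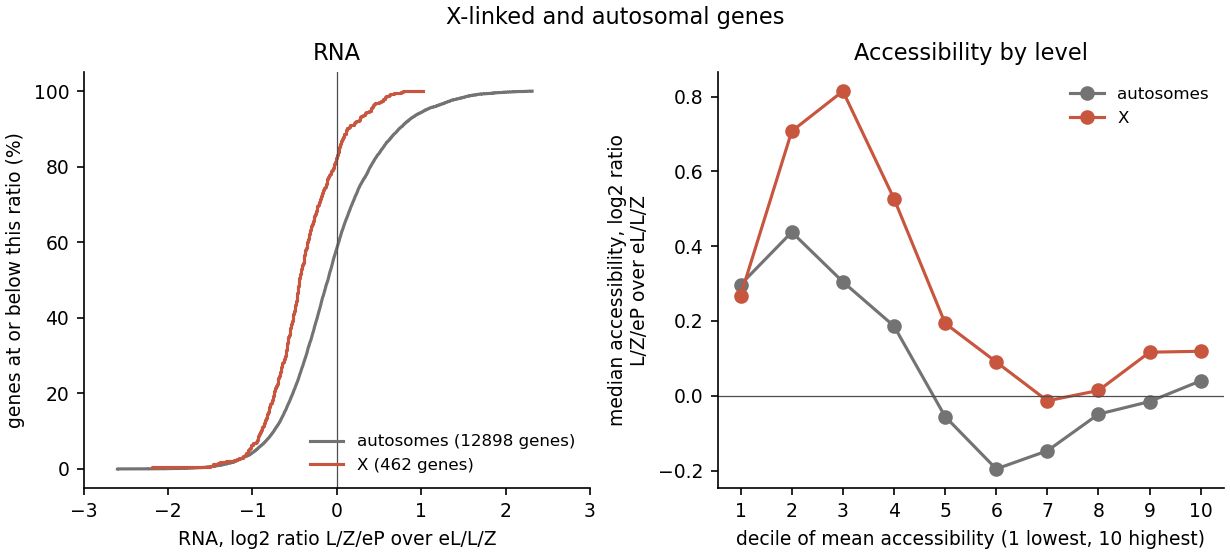
Left, cumulative percent of X-linked (red, 462) and autosomal (grey, 12898) genes by RNA log2 ratio, L/Z/eP over eL/L/Z. Right, median accessibility log2 ratio of X-linked and autosomal genes by decile of mean accessibility. The X curve lies to the left in RNA (median -0.44 against -0.11), and the X points lie above the autosomal points in all deciles but the lowest.

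Promoters of the called genes were searched for 6 short motifs on both strands, within the same 300-base RefSeq window. Such a window was found for 528 of the 831 higher and 444 of the 606 lower genes. It was found for 82 of the 182 genes higher in both assays. The band loci, 79 of the 831 and 55 of the 182, had no coordinates here and are left out of every share. The letters were GTTGCC (RFX), AACNGTT (MYB), TTCCCGC (E2F), CCAAT (NF-Y), TGACGTCA (CRE) and CACCTG (E-box). AACNGTT can overlap GTTGCC, and CCAAT and GTTGCC can share bases. GTTGCC was in 25.0% of the higher and 8.33% of the lower genes, 13.7% of all genes tested and 12.7% of all 27025 promoters, and in 18.3% of the genes higher in both assays. AACNGTT was in 7.77%, 0.901%, 3.31%, 4.36% and 12.2% in the same order, the last being 10 of 82 promoters. TTCCCGC was in 4.73% and 8.11% of the higher and lower genes, 8.66% of all genes tested and 4.66% of all promoters, and in 0 of 82 promoters of genes higher in both assays. CCAAT was in 41.1%, 34.2%, 39.4%, 37.9% and 45.1% in that order, TGACGTCA in 3.03%, 2.25%, 3.35%, 1.88% and 2.44%, and CACCTG in 20.3%, 18.7%, 17.5%, 20.03% and 17.1%. By accessibility, 182 genes were at least 2-fold higher with a mean of at least 10 units, and promoters were found for 77. CCAAT was in 48.1% and GTTGCC in 12.99% of these 77, against 38.5% and 13.4% of all genes with that mean. In the same comparison AACNGTT was in 9.09% against 3.18%, and TTCCCGC in 1.30% against 8.44%. TGACGTCA was in 2.60% against 3.29%, and CACCTG in 18.2% against 18.7%. These are counts of letters, not of bound sites.

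Placed in the course of spermatogenesis, the 831 higher genes were mostly not at their highest in L/Z/eP. Their highest germ cell value was in mP/lP for 372, in RS for 268, in D for 118, in ES for 63 and in L/Z/eP for 10. In that order, these are 44.8%, 32.3%, 14.2%, 7.58% and 1.20% of the 831. Of all genes tested, 12.6%, 14.98%, 3.45%, 13.2% and 5.84% had their highest value in the same populations. The median of the 831 was lowest in pL, at 0.0369, against 0.242 and 0.819 in the 2 populations, 1.37 in mP/lP and 1.43 in D. In diff. SpG, whose column held later markers as given above, it was 0.413. Of the 606 lower genes, 299 were highest in undiff. SpG, 208 in pL, 22 in diff. SpG, 22 in eL/L/Z, 51 in ES and 4 in RS, and their median was 0.967 in undiff. SpG, 0.857 in pL, 0.636 in eL/L/Z, 0.204 in L/Z/eP, and then 0.111 in mP/lP. By share, 49.3% of the lower genes were highest in undiff. SpG and 34.3% in pL, against 19.4% of all genes tested in each. Below the share of all genes tested were diff. SpG (3.63% against 5.94%), eL/L/Z (3.63% against 5.19%), ES (8.42% against 13.2%) and RS (0.660% against 14.98%). Both sets were chosen by the ratio of L/Z/eP over eL/L/Z. A higher gene therefore cannot peak in eL/L/Z, nor a lower gene in L/Z/eP, which fixes part of these shares. Only small shares of genes were at their highest in eL/L/Z or L/Z/eP, and rarely by much. Of all genes tested, 714 (5.19%) were highest in eL/L/Z and 804 (5.84%) in L/Z/eP, against 19.4% each in undiff. SpG and pL and 3.45% in D. Folds over the next population were taken on values + 0.1, which understates those of weakly expressed genes. On that scale, 2 of the 714 reached 1.5-fold (H2-Q10 and Stra6). Of the 804, 9 reached 1.5-fold and 1, Gm26870 (5.98 against 2.61), at least 2-fold.

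Calls also differed by kind of gene. Of 1008 long noncoding RNA genes tested, 157 (15.6%) were at least 2-fold higher and 9 lower, with a median of 0.41. Of 12361 protein-coding genes, 572 (4.63%) were at least 2-fold higher and 575 (4.65%) lower, with a median of -0.16. By decile of gene length, the longest protein-coding genes (decile 10) had 7.58% of genes at least 2-fold higher and 5.78% lower, and decile 9 had 4.97% and 5.98%.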

How the data were processed

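Nuclei of whole testes were run through the BD Rhapsody system for RNA and accessible chromatin, with 1 library per condition in each of 2 assays, and no label says that any library is a replicate. The submitters' processing notes name mm10, STAR 2.7.10b, BWA 0.7.12, bedtools 2.27.1, Seurat 5.2.1 and ArchR 1.0.3. The study's methods state that the authors kept cells with at least 500 genes and less than 5% mitochondrial UMIs and took out doublets.

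The authors deposited both gene matrices as the natural log of 1 plus a mean that sums to 10000 per population, as found from the values themselves, with 1 pooled column for each of 13 scRNA-seq populations. The cell tables hold, as deposited, counts of UMIs, genes and fragments without normalization, the percent of mitochondrial UMIs, and the authors' ArchR ratio of TSS enrichment and fraction of reads in promoters. 15 columns were not used.

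Values were turned back by exp(value) - 1 in Python 3.11.15 (pandas 2.3.3, numpy 2.4.6, matplotlib 3.10.9, scipy 1.17.1). RNA log2 ratios were taken on UMIs per 10000 + 0.1 where the mean reached 0.05. Accessibility log2 ratios were taken on values scaled to a sum of 1e+06 without mt- genes, + 1. The scripts were checked on simulated data. Chromosomes and gene kinds came from GENCODE vM21 by symbol (27414 of 28125 genes of the RNA matrix and 29911 of 30657 of the other matched), and promoters from RefSeq. Depth was compared within libraries that had at least 20 cells of both populations by an exact sign-flip permutation test on log2 medians, and shares of cells have exact 95% intervals that cover counting error only.

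The populations, lists and tests were chosen with earlier results of these data known. Genes named were the 10 with the largest RNA ratio in each direction (mean of 0.2 or more), the 5 with the largest accessibility ratio (mean of 10 units or more), 5 in each joint class, the called members of each list, up to 5 in each direction, and Nfya, Nfyb and Nfyc. Genes named outside this rule are band loci and genes of families grouped by symbol, H2-Q10, Stra6, Gm26870, X-linked genes, further members of lists, and Mybl1, Sycp1, Dmc1 and Prdm9, and they were chosen after their values were seen. Alternatives covered pseudocounts, filters, scaling, the fold, cell filters, each library left out and, chosen after seeing the data, shared barcodes left out and all settings for the band loci.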

Additional observations from a re-analysis of the deposited data

Results flagged for a closer look

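The libraries of 17 and 25 dpp moved in opposite directions in 3 measures of cell quality. With 1 library at each age, these differences were not tested. The median percent of mitochondrial UMIs was lower in L/Z/eP than in eL/L/Z at 17 dpp (0.801 and 1.15, log2 ratio -0.52) and higher at 25 dpp (0.715 and 0.521, log2 ratio 0.46). At 11 dpp and in Cre/+ it was higher too, with log2 ratios of 0.22 and 0.27. The median TSS enrichment, the coverage at gene starts over that of flanking windows, was lower in L/Z/eP at 17 dpp (16.1 and 19.96, log2 ratio -0.31) and higher at 25 dpp (14.998 and 13.3, log2 ratio 0.17). The median fraction of reads in promoters was likewise lower at 17 dpp (0.239 and 0.296, log2 ratio -0.31) and higher at 25 dpp (0.238 and 0.220, log2 ratio 0.11). In Cre/+, TSS enrichment and the promoter fraction were lower in L/Z/eP, as at 17 dpp, with log2 ratios of -0.09 and -0.19. The 17 dpp values of L/Z/eP rest on 266 scRNA-seq and 153 scATAC-seq cells.

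The populations that both assays gave to the same nuclei also differed by library. Of eL/L/Z cells by RNA, scATAC-seq named 74.5% eL/L/Z at 25 dpp, 21.2% at 11 dpp and 8.48% at 17 dpp. It gave the name L/Z/eP to 22.4%, 40.7% and 57.0% in the same order, so at 11 and 17 dpp more of these cells carried the other name than the matching one. Of L/Z/eP cells by RNA, it named 59.3% L/Z/eP at 25 dpp, 66.7% at 11 dpp (12 of 18 cells), 7.84% at 17 dpp and 31.7% in Cre/+. In Cre/+, 41.9% of 43 eL/L/Z cells were named eL/L/Z and 13.95% L/Z/eP. The accessibility values compared above follow the RNA names.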

How the results depend on the processing

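Of 93 alternative values of the main results, 51 were close to the reported value. The rest are given here, and their causes were not tested unless the setting itself sets the count. With an RNA pseudocount of 0.01, 1710 genes were higher and 1613 lower, and with 1, 114 and 12. At 1.5-fold they were 1922 and 2373, and at 3-fold 218 and 57. Band loci higher in RNA were 33 with a pseudocount of 1 and 51 at 3-fold. In accessibility, a pseudocount of 0.1 gave 2923 genes higher and 106 lower, and 5 gave 118 and 0. Keeping mt- genes gave 54 and 1484, with 27 band loci higher. A mean of at least 10 gave 182 genes higher, centring on the median 52 lower, and 1.5-fold 3838 and 1033. Genes higher in both assays were 607 at 1.5-fold and 114 with an accessibility mean of at least 10.

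X-linked genes lower in RNA were 57.8% without a filter on low values, 86.9% with a mean of at least 0.2 and 76.2% after centring. Autosomal genes were 48.8%, 60.9% and 49.4%, on the other side of equal shares from the reported 58.4% in the first and the last. X-linked genes higher in accessibility were 37.97% with mt- genes kept, 60.3% with a mean of at least 10 and 68.8% after centring, and autosomal genes 19.4%, 41.6% and 48.9%, each on the other side of equal shares from the reported 56.8%. Cells with at least 1000 genes gave 25 dpp shares of 51.8% (eL/L/Z) and 96.6% (L/Z/eP), and cells with under 2% mitochondrial UMIs 46.3% for eL/L/Z. Without shared barcodes, an alternative chosen after seeing the data, the L/Z/eP share was 94.2%. Of scATAC-seq cells, the eL/L/Z share was 40.3% with at least 3000 fragments, and naming by scATAC-seq in place of RNA gave 58.5% and 61.9%.

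Leaving out each library in turn kept fewer UMIs (from -0.60 to -0.50) and fewer fragments (from -1.05 to -0.63) in L/Z/eP. The mean log2 difference in percent mitochondrial UMIs, 0.11, was -0.0079 without 25 dpp and at most 0.32 (without 17 dpp), and that in TSS enrichment, -0.08, ranged from -0.20 (without 25 dpp) to 0.039 (without 17 dpp). Of 1940 alternative log2 ratios of named genes, none reversed a 2-fold call. In RNA 137 fell below the fold required in their setting and 19 reached it, and in accessibility 46 and 50. The required fold was itself changed in some settings, so these counts are not all crossings of 2-fold. No paired analysis was possible because the gene matrices pool all libraries and all replicate numbers are 1, so the 2 populations were paired within libraries for depth and cell quality alone. Depth limits low genes most, since a mean of 0.05 rests on 97.6 and 82.6 UMIs.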
